A study of Homo sapiens with 12 samples.

Results

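Follower cells were compared with invasive photoconverted cells of the same spheroids' cell line on gene expression arrays, with 3 arrays a side and thus 6 of the 12 arrays of the series. The comparison took every gene symbol that the platform annotation names, with the probeset of highest mean over the 12 arrays standing for each symbol, which gave 14884 genes out of 53617 probesets. All cells were H1299-Dendra2, a non-small-cell lung carcinoma line stably transfected with a photoconvertible protein that turns from green to red under violet laser light and carries a membrane-targeting tag. Spheroids were embedded in Matrigel and left to invade overnight, cells picked under the microscope were photoconverted and released with dispase, and a small number of sorted cells per sample was amplified and hybridised. The follower cells (F) were photoconverted cells that trailed a leader in an invasive chain, and the invasive photoconverted cells (IR) were photoconverted invading cells that the labels do not divide into leaders and followers. The other 2 groups, leader cells (L) and invasive cells that were not photoconverted (NG), had 3 arrays each and entered the fit and the side-by-side values. Every group, IR and NG included, carried the Dendra2 transgene and went through Matrigel and dispase, and the IR against NG pair is the study's control for the photoconversion step. The labels do not state whether the 3 replicates of a group came from separate cultures, so the p-values below measure only the spread between these samples, which may be technical.

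In collective invasion, carcinoma cells enter a matrix as chains of attached cells, in which a leader cell at the tip opens the path and follower cells trail behind it. Leaders are known for matrix remodelling, focal adhesions and secreted growth factors, while followers are known for their contacts to one another and for proliferation. The labels describe IR cells only as invasive, so how many leaders and followers they held is not stated.

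Values are log2 array signals after quantile normalisation, on which 1 unit is a doubling of signal, and each difference is the F mean minus the IR mean in a limma fit over all 12 arrays with its standard error (SE). An adjusted p is the Benjamini-Hochberg value over all 14884 genes. The median gene had a mean of 2.90 on this scale and only 0.665% of genes lay above 6, so most symbols sat in a narrow band in which unexpressed genes also lie. Because each sample was a pool of few cells, fewer cells of a kind and less RNA per cell cannot be told apart for any gene.

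Follower replicate 3 stood apart from the other arrays. It had 76 genes above a value of 6, against 159 and 192 on the other F arrays and 103 to 186 on the IR arrays, and its mean correlation with the other 11 arrays was 0.604, the lowest of the 12 (the others lay between 0.653 and 0.714). The F arrays correlated at 0.645 on average with one another and the IR arrays at 0.719. Each result below was therefore also computed without F replicate 3. Of 22 genes listed as markers of the line, 16 were measured, with a median level of 3.36. Only 3 of them, TMSB10, ANXA1 and VIM, had means above 6 (9.89, 6.12 and 6.03), while the epithelial adhesion gene EPCAM had 2.33. The lists for lung epithelium, endothelium, fibroblasts, leukocytes, blood and platelets, neuroendocrine cells and liver had no member with a mean above 3.98 (SFTPD). The median marker of the line also lay below that value.

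No gene passed an adjusted p of 0.05 in either direction in the limma fit, and none did after the same adjustment with the methods' t-test, which the study names for experiments other than its arrays. The smallest adjusted p was 0.378, for PRTFDC1. At an unadjusted p under 0.05, 308 genes had higher means in F cells (2.07% of those tested) and 319 had lower means (2.14%), or 281 and 314 with the methods' t-test. Both directions together made 4.21% of genes. The 3 F arrays all lay above the 3 IR arrays in 645 genes (4.33%) and all below in 716 (4.81%), 9.14% in all, and with 3 arrays against 3 an exact permutation test cannot go below 0.10. Without F replicate 3 the limma counts were 401 (2.69%) and 258 (1.73%), and still none passed the adjustment. Without IR replicate 1, 4 genes passed it, all lower in F cells (MIR626, MGA, CLC and LINC00623, described further on). The genes named below are therefore a description of the largest differences, and no direction is called for any of them.

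**Figure D1:**
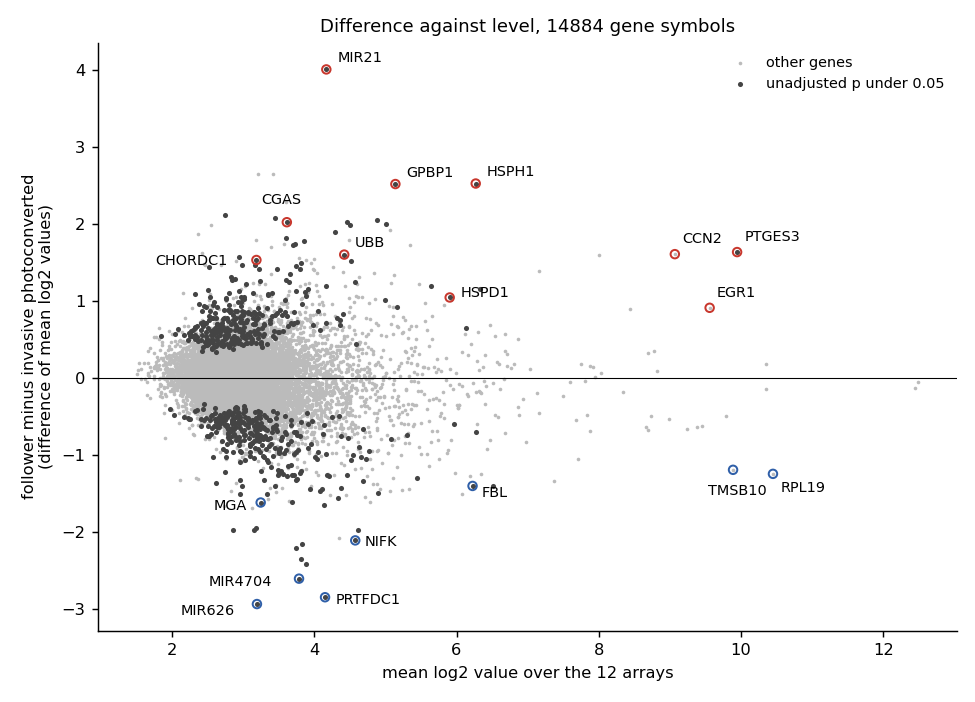
Each point is 1 of 14884 gene symbols, with its mean log2 value over the 12 arrays on the x axis and the F minus IR difference of mean log2 values on the y axis. Dark points have an unadjusted p under 0.05 (308 higher, 319 lower), and circled genes are named in the text, red for a higher and blue for a lower mean in F cells.

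The genes named first are the 12 with the largest differences in each direction among those with an unadjusted p under 0.05 with all arrays and without F replicate 3, groups that did not overlap, and a mean at or above the median gene. This rule was met by 82 higher (0.551%) and 103 lower genes (0.692%). The 24 held 6 microRNA genes and 1 guide RNA of the Cajal body, and microRNA genes made 1072 of the 14884 genes tested. Of all microRNA genes, 27 had higher and 40 lower means at an unadjusted p under 0.05 (6.25% together), beside 4.20% of 11916 protein-coding genes and 3.08% of 1398 long noncoding RNA genes, shares that were not tested against one another. The mature microRNAs of these loci are printed from RefSeq (GRCh38.p14) to show which of them share a seed, the stretch of bases 2 to 8 through which a microRNA pairs with its targets, in capitals. That of MIR626, which did not meet the rule and is described further on, is printed with them. The array probes lie in the precursor gene and do not tell the mature strand from its primary transcript. The first 3 belong to genes with higher and the other 5 to genes with lower means in F cells.
hsa-miR-21-5p: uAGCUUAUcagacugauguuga
hsa-miR-3190-3p: uGUGGAAGguagacggccagaga
hsa-miR-3689d: gGGAGGUGugaucucacacucg
hsa-miR-4704-5p: gACACUAGgcaugugagugauu
hsa-miR-4704-3p: uCAGUCACauaucuagugucua
hsa-miR-4500: uGAGGUAGuaguuucuu
hsa-miR-4451: uGGUAGAGcugaggaca
hsa-miR-626: aGCUGUCUgaaaaugucuu

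The mature strands lie at chr17:59841273-59841294 (miR-21-5p, plus strand), chr19:47226988-47227010 (miR-3190-3p, plus), chr9:134850332-134850353 (miR-3689d, minus), chr13:66218259-66218280 and chr13:66218296-66218317 (miR-4704, plus), chr13:87618671-87618687 (miR-4500, minus), chr4:85722515-85722531 (miR-4451, plus) and chr15:41691645-41691663 (miR-626, plus). No 2 of the 8 share a seed. The seed of miR-4500 is that of the let-7 family and occurs in 10 other human mature microRNAs, that of miR-21-5p in 1 other (miR-590-5p) and that of miR-3689d in 1 other (miR-6851-5p). Of the 12 other measured genes with the let-7 seed, 7 had higher and 5 lower means in F cells, between -1.01 and 1.45, and only MIRLET7A2, singled out after its values were seen, had an unadjusted p under 0.05 (0.00653).

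MIR21, a microRNA gene raised in many carcinomas, had the largest difference with a higher mean in F cells. Its values were 6.45, 8.05 and 4.69 on the F arrays and 2.52, 2.03 and 2.62 on the IR arrays. All F arrays lay far above all IR arrays, and the F arrays spread more than the IR arrays. The difference was 4.01 ± 1.37 (SE), a 16.1-fold higher signal, with an unadjusted p of 0.0131 and an adjusted p of 0.998 in limma. Outside the pair the gene was uneven, at 4.02, 4.50 and 2.43 in L cells and 2.39, 8.18 and 2.16 in NG cells, where 1 array was as high as the brightest F array. MIR21 overlaps VMP1, a gene of autophagosome formation, whose own probeset differed by 0.27 ± 0.59 between F and IR cells.

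MIR3190 lies within BBC3, which codes for the cell death protein PUMA. MIR3190 gave 5.62, 4.73 and 4.13 on the F arrays and 3.30, 2.66 and 3.17 on the IR arrays, a difference of 1.78 ± 0.41 with an unadjusted p of 0.00105, while the lowest of its 3 probesets gave -0.05. BBC3, measured by a probeset of its own, gave 4.81, 4.26 and 4.12 on the F arrays and 3.17, 2.92 and 3.68 on the IR arrays, a difference of 1.14 ± 0.28 with an unadjusted p of 0.00169. Neither gene overlapped between the groups. The L arrays stood near the F arrays for both, at 5.24, 4.59 and 3.83 for MIR3190 and 4.61, 4.09 and 3.71 for BBC3, and the NG arrays near the IR arrays, at 3.13, 3.20 and 2.62 and 3.26, 3.30 and 3.07.

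The remaining microRNA genes with higher or lower means rested on single arrays to differing degrees. MIR3689D2 read 3.60, 6.77 and 3.57 in F cells and 3.02, 2.86 and 2.87 in IR cells, and its difference of 1.73 was 0.67 without F replicate 2. MIR4704 read 2.35, 2.40 and 3.45 in F cells and 3.54, 8.79 and 3.69 in IR cells, and its difference of -2.60 was -0.88 without IR replicate 2. Each of these 2 thus had 1 very bright array. MIR4500 read 3.32, 1.76 and 3.21 in F cells and 6.35, 4.85 and 3.70 in IR cells, a difference of -2.20 ± 0.84. MIR4451 read 4.05, 4.38 and 3.85 in F cells and 4.66, 5.24 and 6.84 in IR cells, a difference of -1.49 ± 0.45, while its other probeset gave -0.06, and its difference was -0.86 without IR replicate 3. MIR4451 lies in ARHGAP24, a Rac GTPase activating protein gene, and that gene also had a lower mean in F cells, by -0.86 ± 0.29 (unadjusted p 0.0129), or -0.53 without IR replicate 3. SCARNA7, a guide for the modification of spliceosomal RNA, read 5.52, 6.76 and 4.98 in F cells and 3.58, 3.38 and 4.14 in IR cells, and KPNA4, the nuclear import gene that surrounds it, differed by 1.04 ± 0.62.

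**Figure D2:**
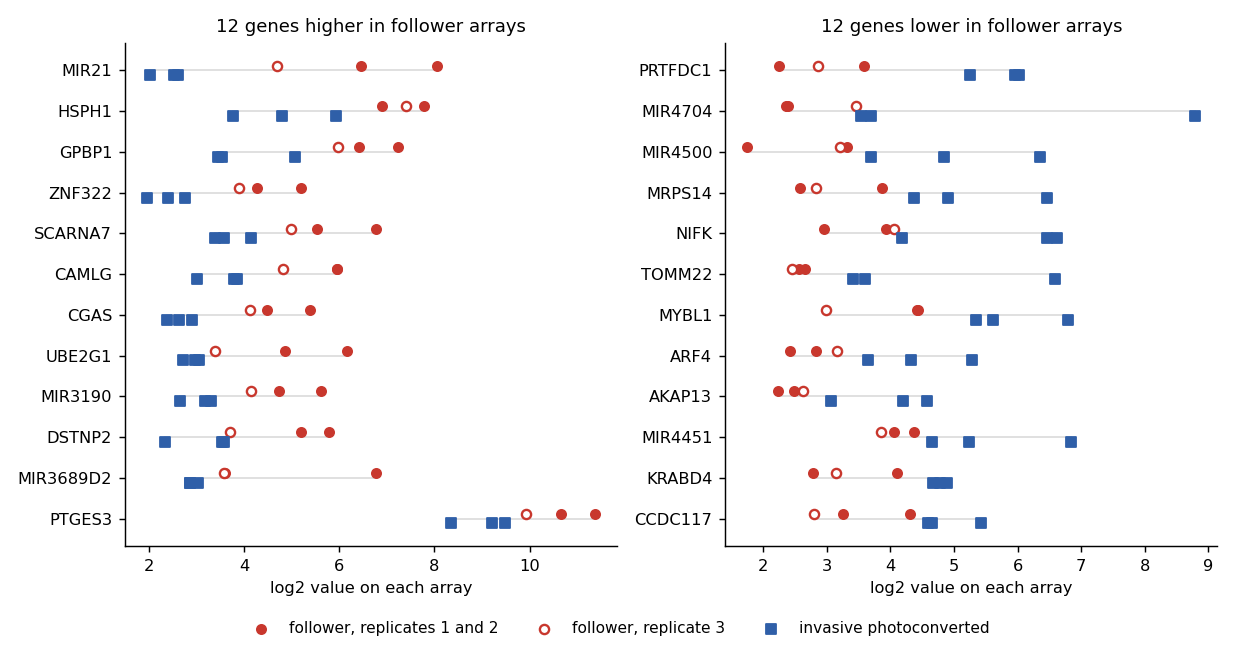
Log2 values on each F array (red circles, the open one being replicate 3) and each IR array (blue squares) for the 12 genes with higher and the 12 with lower means in F cells. The groups do not overlap because the rule required it, and MIR4704, TOMM22 and MIR3689D2 each have 1 array far from the rest of its group.

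Heat shock and chaperone genes made the list with the highest median among those with at least 5 measured members when all arrays were used, while the G2 and mitosis list lay above it without F replicate 1, F replicate 3 or IR replicate 3. Heat shock proteins fold and rescue other proteins, and their co-chaperones load and release the clients. Of 61 genes listed, 26 were measured. Their F means were higher in 17 and lower in 9, with 7 higher (26.9%, beside 2.07% of all genes) and 1 lower (3.85%, beside 2.14%) at an unadjusted p under 0.05. The list's median difference was 0.36, beside -0.01 over all genes. Its mean over members was 4.05, 4.29 and 4.08 on the F arrays and 3.78, 3.82 and 3.54 on the IR arrays, so that every F array lay above every IR array. Without F replicate 3 the counts were 7 higher and 0 lower with a median of 0.29. These 7 were not all the same genes, as HSPA6 and HSPA1A no longer passed. Without IR replicate 3, which had the lowest list mean, the median was 0.20 with 3 higher and 1 lower.

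HSPH1, a large chaperone that recharges HSP70, gave 6.91, 7.78 and 7.40 on the F arrays and 5.94, 4.79 and 3.76 on the IR arrays. The F arrays were close together and above all IR arrays, which were spread. The difference was 2.53 ± 0.82, 5.77-fold, with an unadjusted p of 0.0103. PTGES3, the HSP90 co-chaperone p23 and 1 of the brightest genes on these arrays, gave 10.66, 11.37 and 9.93 in F cells and 9.21, 9.48 and 8.35 in IR cells. Its difference was 1.64 ± 0.41 (unadjusted p 0.00195), and its other probeset gave 1.20. CHORDC1, another HSP90 co-chaperone, gave 3.67, 4.66 and 4.75 in F cells and 3.02, 2.31 and 3.15 in IR cells, a difference of 1.54 ± 0.34 (unadjusted p 8.33e-04, adjusted p 0.998 in limma). All 3 genes had every F array above every IR array.

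The stress-inducible HSP70 gene HSPA6 gave 4.50, 6.42 and 5.96 in F cells and 3.53, 3.81 and 3.56 in IR cells, a difference of 1.99 ± 0.84 (unadjusted p 0.0366). HSPD1, the mitochondrial chaperonin, gave 6.54, 7.11 and 5.84 in F cells and 6.01, 5.53 and 4.79 in IR cells, so that the lowest F array fell below the highest IR array. BAG3, which links HSP70 to autophagy, differed by 0.55 ± 0.19 without overlap. HSPA1A and HSPA1B, the near-identical inducible HSP70 genes that array probes may not separate, differed by 0.69 ± 0.30 and 0.52 ± 0.42, of which HSPA1A had an unadjusted p of 0.0414 (0.192 without F replicate 3, where the difference was 0.40). The member with a lower mean at that threshold was CDC37, which brings kinases to HSP90, with 3.39, 3.27 and 2.93 in F cells and 5.12, 3.61 and 3.63 in IR cells (-0.93 ± 0.41), and it was -0.43 without IR replicate 1. Without F replicate 3 the unadjusted p was 0.0919 for HSPA6 and 0.12 for CDC37. HSF1, the transcription factor of the heat shock response, differed by -0.52 ± 0.30.

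**Figure D3:**
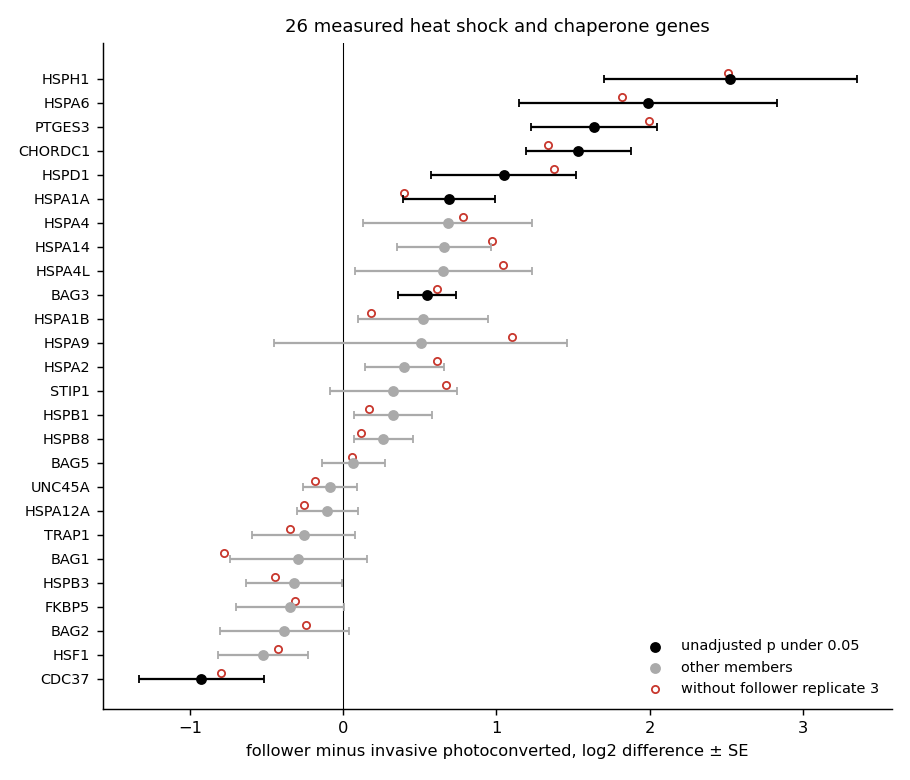
F minus IR difference (log2, x axis) with its SE for each of the 26 measured heat shock and chaperone genes. Black points have an unadjusted p under 0.05 (HSPH1, HSPA6, PTGES3, CHORDC1, HSPD1, HSPA1A and BAG3 higher, CDC37 lower), grey points do not, and open red points are the differences without F replicate 3.

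Heat shock genes are switched on through the heat shock element, inverted repeats of GAA that the factor HSF1 binds. The motif GAANNTTC, which reads the same on both strands, occurs in 6.77% of all 35116 RefSeq promoter windows of 300 bases (from 250 before to 50 after a gene start). Of the 26 measured members, 24 matched the promoter table, and 8 of their 32 windows (25%) held the motif, in CHORDC1, HSPA6, HSPA1A, HSPD1, HSPA1B, HSPB1, HSPB8 and BAG2. The windows of HSPH1, PTGES3 and BAG3 did not hold these letters. CHORDC1 had 3 matches, which only 2 of all windows had, and its window (GRCh38.p14, chr11:90223000-90223299, minus strand) is printed with the matches in capitals, because it belongs to the member with the smallest unadjusted p.
CHORDC1 promoter: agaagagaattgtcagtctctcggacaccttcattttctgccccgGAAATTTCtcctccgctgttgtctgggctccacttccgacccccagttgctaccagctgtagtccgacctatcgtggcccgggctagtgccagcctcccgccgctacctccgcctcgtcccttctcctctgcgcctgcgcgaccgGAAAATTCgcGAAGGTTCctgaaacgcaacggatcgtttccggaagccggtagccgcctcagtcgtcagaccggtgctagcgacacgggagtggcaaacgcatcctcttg

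The matches start 205, 60 and 50 bases before the annotated gene start. They are descriptions of letters and say nothing of binding in these cells.

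Against the other groups, which share the F or the IR arrays with the main comparison, the chaperone genes split. HSPH1 gave 7.05, 4.28 and 5.53 in L cells and 8.52, 7.71 and 5.57 in NG cells, so the F mean stood 0.09 ± 0.82 from the NG mean, and the IR mean -2.44 ± 0.82 from it (unadjusted p 0.0127). The IR mean was thus further from the NG mean than the F mean for HSPH1, but IR replicate 1 (5.94) lay above NG replicate 3 (5.57). CHORDC1 gave 2.45, 2.53 and 2.86 in L cells and 3.43, 2.92 and 2.47 in NG cells, and its F mean was above both, by 1.75 ± 0.34 over L and 1.42 ± 0.34 over NG, while IR and NG differed by -0.12 ± 0.34. PTGES3 gave 10.42, 10.29 and 9.88 in L cells and 10.06, 10.42 and 9.29 in NG cells. For the list as a whole the median was 0.24 for F minus L, -0.01 for F minus NG and -0.21 for IR minus NG. Over all genes, 295 (1.98%) and 318 (2.14%) had higher and lower means at an unadjusted p under 0.05 for F minus L, 338 (2.27%) and 535 (3.59%) for F minus NG, and 276 (1.85%) and 448 (3.01%) for IR minus NG.

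Protein turnover and folding genes outside that list gave mixed results. Of 27 measured proteasome, E2 and cullin genes, 14 had higher and 13 lower means. At an unadjusted p under 0.05 there were 2 each way (7.41% each, beside 2.07% and 2.14% of all genes). The ubiquitin gene UBB gave 6.57, 4.62 and 4.73 in F cells and 4.10, 3.73 and 3.29 in IR cells (1.61 ± 0.45), with replicate 1 far above the other F arrays and a difference of 0.97 without it. The ubiquitin-conjugating enzyme UBE2G1 gave 6.16, 4.87 and 3.39 in F cells and 3.05, 2.72 and 2.96 in IR cells (1.90 ± 0.64), and F replicate 3 was close to the IR arrays. Its difference was 1.22 without F replicate 1. UBE2R2, another conjugating enzyme, and NAE1, which activates NEDD8, had lower means by -0.88 ± 0.32 and -0.95 ± 0.38, but NAE1 gave -0.55 without F replicate 3 (unadjusted p 0.144). Of 22 measured genes of the unfolded protein and amino acid stress responses, 15 had higher and 7 lower means, none at that threshold. Their mean was 3.69, 3.67 and 3.49 on the F arrays and 3.44, 3.48 and 3.48 on the IR arrays, and DDIT3, the stress factor CHOP, came nearest to the threshold (0.91 ± 0.44). DDIT3 gave 3.17, 4.96 and 3.17 on the F arrays, and its difference was 0.32 without F replicate 2.

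The other genes with the largest higher means covered unrelated functions. GPBP1, a transcription factor of GC-rich promoters, gave 6.42, 7.24 and 5.96 in F cells and 3.45, 5.08 and 3.54 in IR cells (2.52 ± 0.58, unadjusted p 0.00107). CGAS, the cytosolic DNA sensor, gave 5.39, 4.48 and 4.12 in F cells and 2.37, 2.91 and 2.63 in IR cells (2.03 ± 0.45, unadjusted p 8.76e-04). The zinc finger gene ZNF322 gave 5.20, 4.26 and 3.89 in F cells and 1.96, 2.40 and 2.76 in IR cells (2.08 ± 0.43, unadjusted p 4.57e-04), while its other probeset gave -0.03. For these 3 the lowest F array was replicate 3, which still stood above every IR array. CAMLG, which helps insert tail-anchored proteins into the endoplasmic reticulum, gave 5.96, 5.95 and 4.82 in F cells and 3.003, 3.86 and 3.79 in IR cells. DSTNP2, a pseudogene whose probes may also catch its parent DSTN, gave 5.19, 5.79 and 3.69 in F cells and 3.54, 2.33 and 3.58 in IR cells. In both, F replicate 3 was the F array nearest to the IR arrays. The NG means were closer to F than to IR for ZNF322 (F minus NG 0.19, IR minus NG -1.88), UBE2G1 (-0.41 and -2.31) and CGAS (0.64 and -1.39). The same held for GPBP1 (1.02 and -1.50), CAMLG (0.83 and -1.20), SCARNA7 (0.42 and -1.63), PTGES3 (0.73 and -0.91) and HSPH1. Of the 12 higher genes, the others had NG means closer to IR, namely MIR21 (2.15 and -1.86), MIR3190 (1.84 and 0.06), MIR3689D2 (1.45 and -0.28) and DSTNP2 (1.27 and -0.47).

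Among genes with lower means in F cells, PRTFDC1, a relative of the purine salvage enzyme HPRT1 with little activity of its own, had the smallest p of all genes. Its values were 2.24, 3.59 and 2.86 on the F arrays and 6.02, 5.96 and 5.25 on the IR arrays. The groups were separated by more than the range of either. The difference was -2.84 ± 0.42, a 7.18-fold lower signal in F cells, with an unadjusted p of 2.54e-05 and an adjusted p of 0.378 in limma, and it lay between -3.19 and -2.52 with any 1 of the 6 arrays left out. L cells were as low as F cells, at 2.22, 3.31 and 2.77 (F minus L 0.13 ± 0.42), and NG cells as high as IR cells, at 4.46, 5.47 and 5.64 (IR minus NG 0.55 ± 0.42). HPRT1, the salvage enzyme itself, gave 3.98, 4.88 and 2.52 in F cells and 4.30, 6.23 and 4.37 in IR cells, which overlap. Of 25 measured genes of purine and pyrimidine synthesis and salvage, 12 had higher and 13 lower means. At an unadjusted p under 0.05, 0 were higher and 2 lower (8%, beside 2.14% of all genes), of which PRTFDC1 was 1. The other was CTPS1, which makes cytidine nucleotides (-0.66 ± 0.30, or -0.38 without F replicate 1).

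**Figure D4:**
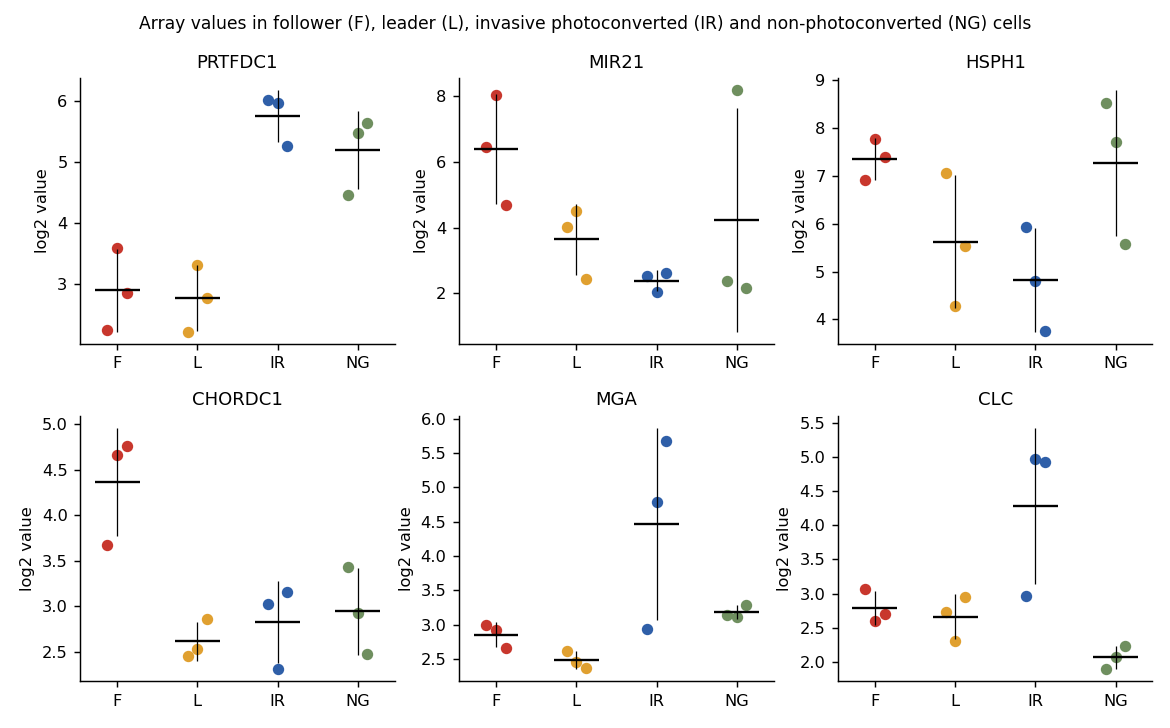
Log2 values (y axis) of 6 genes on the 3 arrays of each group (x axis, F, L, IR and NG), with the mean as a bar and the SD as a line. PRTFDC1 is low on all F and L arrays, CHORDC1 is highest on the F arrays, and in MGA and CLC IR replicate 1 lies apart from the other IR arrays.

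MGA, a large partner of MAX in the MYC network, contains the microRNA gene MIR626, and both had 2 bright IR arrays. MGA gave 2.99, 2.92 and 2.65 in F cells and 2.93, 4.79 and 5.68 in IR cells, where replicate 1 was at the level of the F arrays. MIR626 gave 2.59, 2.08 and 2.59 in F cells and 1.93, 6.16 and 7.97 in IR cells, with replicate 1 below every F array. CLC, the eosinophil protein galectin-10, gave 3.07, 2.59 and 2.70 in F cells and 2.97, 4.97 and 4.93 in IR cells. The noncoding gene LINC00623 gave 2.87, 3.79 and 3.16 in F cells and 3.28, 6.15 and 7.62 in IR cells. In all 4 genes IR replicate 1 lay at or below the highest F array, and IR replicates 2 and 3 lay above every F array. The differences with all arrays were -1.61 ± 0.51 for MGA, -2.93 ± 1.09 for MIR626, -1.50 ± 0.44 for CLC and -2.41 ± 0.79 for LINC00623, with adjusted p-values of 0.998 in limma. Without IR replicate 1 each had an adjusted p of 0.0120 in limma, at differences of -2.38, -4.65, -2.16 and -3.62 in the same order. Without IR replicate 3 the differences were -1.01 for MGA, -1.62 for MIR626 and -1.44 for LINC00623. The L and NG arrays were near the F arrays for MGA, at 2.62, 2.46 and 2.37 in L cells and 3.15, 3.10 and 3.29 in NG cells. Of the 11 measured genes of the MYC network, MGA alone had an unadjusted p under 0.05 (9.09%, beside 2.14% of all genes with lower means).

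Mitochondrial and nucleolar genes supplied several of the largest lower means. MRPS14, of the small mitochondrial ribosomal subunit, gave 2.58, 3.86 and 2.83 in F cells and 4.37, 4.90 and 6.47 in IR cells (-2.16 ± 0.60). TOMM22, an import receptor of the outer mitochondrial membrane, gave 2.56, 2.66 and 2.46 in F cells and 3.41, 3.61 and 6.58 in IR cells (-1.97 ± 0.64), where IR replicate 3 was far above the rest and the difference was -0.95 without it. Over the 93 measured genes of mitochondrial translation and import there was no common direction, with 41 higher and 52 lower means. At an unadjusted p under 0.05, 2 were higher (2.15%) and 4 lower (4.30%), beside 2.07% and 2.14% of all genes. MRPL24 was among the lower (-1.01 ± 0.41) and MRPL45 among the higher (1.31 ± 0.45, or 0.80 without F replicate 1). NIFK, a nucleolar partner of the proliferation protein Ki-67, gave 2.95, 3.94 and 4.06 in F cells and 4.19, 6.47 and 6.62 in IR cells (-2.11 ± 0.73), and IR replicate 1 was close to the F arrays. The 35 measured ribosome biogenesis genes had 13 higher and 22 lower means. At that threshold 1 was higher (2.86%) and 2 lower (5.71%), beside 2.07% and 2.14% of all genes. Their list means were 3.20, 3.25 and 3.12 in F cells and 3.37, 3.35 and 3.40 in IR cells. The 2 lower were FBL, the methyltransferase fibrillarin (4.80, 5.79 and 4.40 in F cells and 5.29, 6.32 and 7.58 in IR cells), and PAK1IP1 (-0.80 ± 0.30), and the higher was NOLC1 (0.84 ± 0.28). Without F replicate 3 the unadjusted p was 0.143 for FBL and 0.0635 for PAK1IP1. The difference of FBL, -1.40 with all arrays, was -0.81 without IR replicate 3, and that of PAK1IP1 was -0.52 without F replicate 2. NG cells were brighter than both groups for FBL, at 8.12, 8.22 and 7.23, so that the F mean was -2.86 ± 0.62 and the IR mean -1.46 ± 0.62 from it.

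Other lower means belonged to genes of transcription, signalling and vesicle traffic. MYBL1, a MYB family transcription factor, gave 4.41, 4.44 and 2.99 in F cells and 5.62, 6.79 and 5.34 in IR cells (-1.97 ± 0.63). AKAP13, an anchor of protein kinase A, gave 2.23, 2.48 and 2.62 in F cells and 3.07, 4.21 and 4.57 in IR cells (-1.51 ± 0.37, unadjusted p 0.00189), while its 3 probesets ran from -1.51 to -0.05. ARF4, a small GTPase of Golgi traffic, gave 2.43, 2.84 and 3.17 in F cells and 3.64, 4.33 and 5.28 in IR cells (-1.60 ± 0.50). Each had F arrays below all IR arrays by the rule. KRABD4, a KRAB domain gene, and CCDC117 had differences of -1.44 ± 0.38 and -1.43 ± 0.46. The 40 measured RAB, ARF, SNARE and coat genes had 18 higher and 22 lower means. At an unadjusted p under 0.05, 1 was higher (SNX2, 0.85 ± 0.30) and 2 were lower (STX12, -0.81 ± 0.21, and ARF4). These were 2.5% and 5% of the list, beside 2.07% and 2.14% of all genes.

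Cell cycle genes were read as 2 lists. Of 49 measured genes of G2, mitosis and cytokinesis, 32 had higher and 17 lower means in F cells, with 3 higher (6.12%, beside 2.07% of all genes) and 0 lower at an unadjusted p under 0.05, and a median of 0.29. The list means were 3.22, 3.69 and 3.12 on the F arrays and 3.13, 3.12 and 3.06 on the IR arrays, of which F replicate 2 was far the highest and F replicate 3 lay below 1 IR array. The median was 0.09 without F replicate 2. CENPA, the histone variant of centromeres, gave 4.34, 4.09 and 3.51 in F cells and 3.18, 2.94 and 2.76 in IR cells (1.02 ± 0.33, unadjusted p 0.01). CKAP2L, a spindle protein, gave 3.64, 3.68 and 3.66 in F cells and 2.58, 2.80 and 2.88 in IR cells (0.91 ± 0.31). Both were without overlap. CDC25A, the phosphatase that activates cyclin-dependent kinases, was the other (0.95 ± 0.35), with 4.18, 3.18 and 2.56 on the F arrays and a difference of 0.52 without F replicate 1. The proliferation marker MKI67, CDK1 and CCNB1 gave 0.34 ± 0.51, 0.58 ± 0.65 and 0.67 ± 0.83. Against NG cells the list's median was -0.30 for F and -0.44 for IR cells, with NG list means of 3.17, 4.60 and 3.30, of which replicate 2 stood far above the other NG arrays.

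Of 26 measured genes of DNA replication and S phase, 6 had higher and 20 lower means, with 0 higher and 2 lower (7.69%, beside 2.14% of all genes) at an unadjusted p under 0.05, and a median of -0.15, or -0.091 without IR replicate 1. Their median level was 2.89, beside 2.90 for the median gene, so many sat in the band in which unexpressed genes also lie. The list means were 3.09, 3.05 and 3.10 on the F arrays and 3.34, 3.19 and 3.11 on the IR arrays, without overlap. MCM4, a subunit of the replicative helicase, gave 3.27, 2.79 and 2.48 in F cells and 4.35, 3.62 and 4.04 in IR cells (-1.16 ± 0.27, unadjusted p 0.00136), with 2.92, 2.80 and 3.07 in L cells and 4.05, 3.96 and 3.28 in NG cells. All F and L arrays lay below all IR and NG arrays for MCM4. CCNE1, the cyclin of S phase entry, differed by -0.54 ± 0.19. TYMS, the thymidylate synthase gene and brightest of the list, went the other way with 4.70, 6.67 and 4.02 in F cells and 3.78, 3.98 and 3.61 in IR cells (1.34 ± 0.65, or 0.57 without F replicate 2), and it was 7.65, 7.04 and 5.80 in NG cells.

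The brightest genes, taken by level alone, were read on their own because they stand clear of the array background. Of 99 genes with a mean above 6, 39 had higher and 60 lower means in F cells. At an unadjusted p under 0.05, 4 were higher (PTGES3, HSPH1, SEM1 and PTMS) and 3 lower (REREP3, FBL and TRABD2A, all 7 named after their values were seen). Over all genes the shares at that threshold were 2.07% higher and 2.14% lower. PTMS and the 3 lower genes did not pass that threshold without F replicate 3, with p-values of 0.0529 for PTMS, 0.0633 for REREP3, 0.143 for FBL and 0.208 for TRABD2A. The median of the 99 was -0.13 with all arrays and 0.18 without F replicate 3, so its sign changed without that array. It was not computed with any other array left out. The 46 measured cytosolic ribosomal protein genes had 16 higher and 30 lower means, none at that threshold, and a median of -0.15. Without F replicate 3 they came to 23 higher and 23 lower. RPL19 gave 10.13, 10.81 and 8.34 in F cells and 10.18, 12.11 and 10.72 in IR cells, where F replicate 3 was lowest. TMSB10, an actin-binding thymosin, gave 9.56, 10.005 and 8.26 in F cells and 9.46, 11.54 and 10.40 in IR cells, again with F replicate 3 lowest.

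Among RNA processing genes, the 71 measured splicing factors had 29 higher and 42 lower means. At an unadjusted p under 0.05, 2 were higher (2.82%) and 4 lower (5.63%), beside 2.07% and 2.14% of all genes. The balance turned without F replicate 3, with 40 higher and 31 lower means, 6 higher and 3 lower at that threshold, and a median of 0.04, against -0.06 with all arrays. The shares over all genes turned as well without that array, to 2.69% higher and 1.73% lower, so the turn was not particular to splicing factors. HNRNPA1, an abundant RNA-binding protein with several pseudogenes that may share its probes, gave 4.96, 5.01 and 3.97 in F cells and 6.56, 5.72 and 5.53 in IR cells (-1.29 ± 0.37, unadjusted p 0.00494). RBM25 gave 3.51, 3.53 and 2.95 in F cells and 3.93, 4.11 and 4.21 in IR cells (-0.76 ± 0.20, unadjusted p 0.00316). SNRPB, a core protein of the snRNPs, went the other way with 4.0, 5.71 and 4.27 in F cells and 3.72, 3.32 and 2.89 in IR cells (1.35 ± 0.41, or 0.82 without F replicate 2). None of the 3 overlapped between the groups. The 46 measured genes of RNA polymerase II, Mediator and elongation had 19 higher and 27 lower means, none at that threshold, with GTF2B nearest (-0.91 ± 0.43).

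Immediate early genes, which answer growth factors and stress within minutes, had 17 higher and 5 lower means among 22 measured. Beside 2.07% and 2.14% of all genes, 1 was higher (4.55%) and 1 lower (4.55%) at an unadjusted p under 0.05. DUSP5 (0.63 ± 0.23) was the higher and JUND (-0.59 ± 0.27) the lower at that threshold. Neither kept it without F replicate 3, where the p was 0.0515 for DUSP5 and 0.2 for JUND (-0.37) and the list had 2 higher and 0 lower. EGR1, the brightest of them, gave 10.90, 11.22 and 11.59 in F cells and 8.99, 11.28 and 10.71 in IR cells, which overlap. It was dimmer in the other groups, at 6.85, 9.87 and 9.92 in L cells and 5.53, 8.57 and 9.29 in NG cells, a F minus NG difference of 3.44 ± 1.02 and an IR minus NG difference of 2.53 ± 1.02. CCN2, the matrix protein and YAP target also called CTGF, gave 10.61, 10.79 and 10.30 in F cells and 8.11, 8.11 and 10.64 in IR cells, where only IR replicate 3 reached the F level (1.61 ± 1.04).

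Of the pathways that the study follows in leader and follower cells, the VEGF, Notch and focal adhesion lists each had 1 gene past the unadjusted threshold. That was 1 of 9, 1 of 32 and 1 of 33 measured genes, beside 4.21% of all genes in either direction. Among the 9 measured genes of the VEGF family and its receptors, the F mean was higher in 3 and lower in 6. FLT1, a VEGF receptor at the array background, gave 2.32, 2.21 and 2.20 in F cells and 2.67, 2.54 and 2.55 in IR cells (-0.34 ± 0.15). It alone passed the unadjusted threshold of 0.05 (11.1% of the list, beside 2.14% of all genes with lower means). FLT1 did not pass it without F replicate 3 (unadjusted p 0.0856), nor did any lower member of the list without IR replicate 1 or IR replicate 3. VEGFA, the ligand, gave 2.95, 3.32 and 3.13 in F cells and 3.49, 3.25 and 3.93 in IR cells, which overlap (-0.43 ± 0.28). The L arrays all lay above the F arrays for VEGFA, at 3.51, 4.07 and 4.61. The receptor KDR and the co-receptor NRP1 differed by 0.15 ± 0.29 and -0.15 ± 0.17. The list of endothelial markers, which shares KDR and FLT1, had 10 of 14 members measured, all with means of 3.18 (PECAM1) or less, and list means of 2.67, 2.74 and 2.66 in F cells and 2.82, 2.76 and 2.80 in IR cells.

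Of 32 measured Notch receptors, ligands, processing enzymes and targets, 11 had higher and 21 lower means. At an unadjusted p under 0.05, 0 were higher and 1 lower (3.1%, beside 2.14% of all genes). Their median level was 2.94, beside 2.90 for the median gene, and the highest level was 4.33 (RBPJ). The list's median difference was -0.20, the lowest of the lists with at least 5 measured members when all arrays were used. It was not the lowest with any 1 of the 6 arrays left out, and without F replicate 3 it was -0.15, against -0.24 for ribosome biogenesis. The list means were 2.95, 2.93 and 2.82 on the F arrays and 3.02, 3.04 and 2.97 on the IR arrays, without overlap. The lower member was the receptor NOTCH3, with 3.04, 2.79 and 2.46 in F cells and 3.46, 2.96 and 3.24 in IR cells (-0.46 ± 0.20). NOTCH1 and its ligand DLL4 differed by -0.10 ± 0.25 and -0.10 ± 0.23, less than their SE, and JAG1, another ligand, by -0.32 ± 0.16. Without F replicate 3 the list had 2 higher and 0 lower members at that threshold, and NOTCH3 was no longer among them.

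Of 33 measured focal adhesion scaffolds and kinases, 16 had higher and 17 lower means. Only ZYX (zyxin, 0.52 ± 0.23) had an unadjusted p under 0.05, which was 0.124 without F replicate 3. It made 3.03% of the list, beside 2.07% of all genes with higher means. PTK2, the focal adhesion kinase, differed by 0.03 ± 0.39, and FN1, the fibronectin gene, by 0.31 ± 0.23. Neither reached beyond the spread of its arrays in a single direction, at 4.14, 4.30 and 3.29 in F cells and 3.14, 4.16 and 4.35 in IR cells for PTK2. The intermediate filament gene VIM gave 6.81, 5.65 and 5.29 in F cells and 5.26, 6.70 and 6.84 in IR cells (-0.35 ± 0.62), and its 3 probesets ran from -0.35 to 0.48. Integrins, histones, CDH1, CDH2 and CDH5 were not analysed here.

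**Figure D5:**
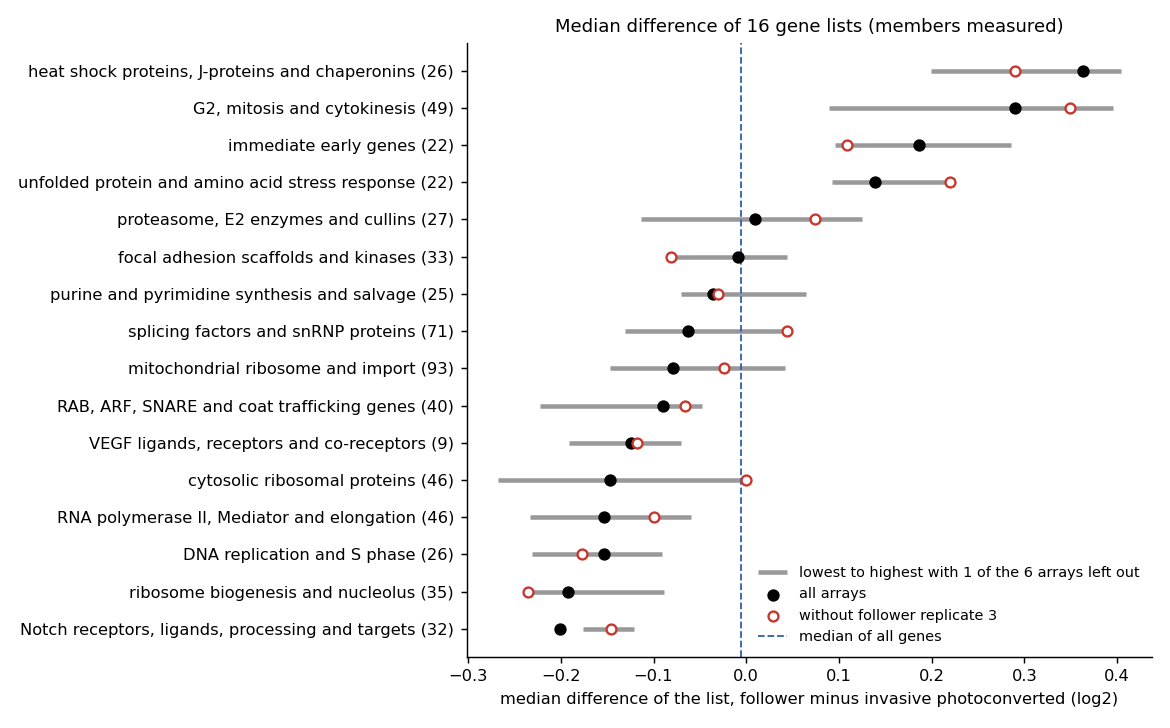
Median F minus IR difference (log2, x axis) of 16 gene lists, with the number of measured members in brackets. Black points are all arrays, open red points leave out F replicate 3, grey bars run from the lowest to the highest median with 1 of the 6 arrays left out, and the dashed line is the median of all genes (-0.01). With all arrays the heat shock list lies highest (0.36) and the Notch list lowest (-0.20), an order that changes where 1 array is left out.

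Of 51 lists drawn up, 46 had at least 5 measured members, and 43 of these had a median within 0.2 of 0. Of the 46, 2 had F list means above all IR list means (heat shock and stress response). Another 5 had them below (Notch, replication, ribosome biogenesis, endothelial, and purine and pyrimidine). Among all single genes 9.14% did not overlap. Some gaps were very small, with F replicate 3 at 3.10 and IR replicate 3 at 3.11 for replication, and at 3.49 and 3.48 for stress response. The purine and pyrimidine list means were 3.06, 3.05 and 3.02 in F cells and 3.26, 3.42 and 3.13 in IR cells. Of the genes named in earlier results of these data and not described above, 5 gave differences of 0.40 or less in size, namely SCAMP2 (0.00 ± 0.19), ERH (-0.10 ± 0.37), RBM42 (0.15 ± 0.18), DHX40 (0.34 ± 0.25) and MYOF (-0.40 ± 0.21). RMND5A, of the CTLH ubiquitin ligase, gave 2.73, 2.48 and 3.15 in F cells and 3.48, 3.90 and 3.07 in IR cells (-0.70 ± 0.28, unadjusted p 0.031), which overlap. CDC14B, a phosphatase, gave 3.38, 2.74 and 2.79 in F cells and 3.71, 3.85 and 4.15 in IR cells, without overlap (-0.93 ± 0.50).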

How the data were processed

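The deposited values are log2 expression signals of 53617 probesets on 12 Human Gene 2.0 ST arrays, 3 for each of 4 groups. Before depositing them the authors adjusted the scanner files for GC content, corrected the background with RMA, took log2, quantile normalised and averaged the probes of each probeset in Partek 6.6, per the submitters' processing notes and the study's methods. No genome build was named in the sources used here (not given), and arrays carry no depth, so the number of arrays limits the precision. Of the probesets, 16098 had 1 platform symbol, none had several and 37519 had none and were not named. The 14884 symbols (779 with several probesets) were each represented by the probeset of highest mean, and 257 of them carried the same values as another symbol. RefSeq GRCh38.p14 tables gave current names, overlapping genes and sequences.

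F minus IR was tested with limma 3.58.1 (lmFit and eBayes, 2-sided, R 4.3.3) over all 12 arrays with 1 term per group, and p-values were adjusted over the 14884 genes with a threshold of 0.05. The script was tested on simulated data. Tables and figures were made with Python 3.11.15 and pandas 2.3.3. The named genes were those past the adjusted threshold, the 12 higher and 12 lower described in the text, up to 4 members of smallest p in each described list, genes the study discusses and genes named in earlier results of these data. The members and lists were chosen with earlier results of these data known. Overlapping genes of the small RNAs, further heat shock, cell cycle and bright genes, KRT8, KRT18, EGR1, CCN2, HPRT1, BBC3 and LINC00623 were added after their values were seen. Lists were described by counts and medians, with no set test.

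As alternatives, each array was median centred or cyclic loess was applied, genes below the median level were filtered out, and the fit was repeated with all probesets, the 6 arrays alone, trend and robust variance, array weights, the replicate number as a block, the methods' t-test (which the study names for experiments other than its arrays, whose own permutation procedure over leader and follower differences was not run) and each array left out in turn. Leaving out each L or NG array was added after seeing the data.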

Additional observations from a re-analysis of the deposited data

How the results depend on the processing

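The number of genes past the adjusted threshold ran from 0 to 4 with 1 of the 6 arrays left out, the 4 arising without IR replicate 1 (MGA -2.38, MIR626 -4.65, CLC -2.16 and LINC00623 -3.62), and was 0 in every other alternative. The unadjusted counts ran from 215 to 502 higher (502 without F replicate 2) and from 258 to 395 lower with 1 array left out, and the non-overlapping genes from 1250 to 1662 above and from 1388 to 1607 below, where 2 arrays face 3. The filter, which tests fewer genes, gave 123 higher and 192 lower at an unadjusted p under 0.05 and 310 above and 416 below without overlap. It moved the medians of the heat shock list to 0.53, ribosome biogenesis to -0.31, VEGF to -0.20 and Notch to -0.27, while array weights gave -0.13 for ribosome biogenesis. The cause was not tested.

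With 1 array left out the list medians ran from 0.20 to 0.40 for heat shock, 0.093 to 0.22 for the unfolded protein response, -0.24 to -0.089 for ribosome biogenesis, -0.23 to -0.060 for RNA polymerase II, -0.18 to -0.12 for Notch and -0.081 to 0.044 for focal adhesion. Differences of named genes near 0 changed sign. With 1 array left out NOTCH1 ran from -0.35 to 0.22, DLL4 from -0.21 to 0.049, PTK2 from -0.34 to 0.34, SCAMP2 from -0.10 to 0.079, ERH from -0.35 to 0.36 and VMP1 from -0.14 to 0.80. SCAMP2 was -0.044 with array weights and ERH 0.077 under cyclic loess.

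Over all genes, F and IR samples of 1 replicate number shared little deviation from their group means (correlations -0.02, 0.10 and 0.04). The number was therefore not taken as a pairing. Most genes lay in the narrow low band, so a shared deviation among brighter genes could go unseen in these correlations. With the replicate block, 332 genes were higher and 355 lower at an unadjusted p under 0.05 in limma, and 0 passed the adjustment. The block changed no other call.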

Other observations

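Some groups of genes were not described above. The 18 measured aminoacyl-tRNA synthetases, which charge tRNAs with amino acids, had 10 higher and 8 lower means in F cells than in IR cells and none at an unadjusted p under 0.05, with medians of -0.42 for F minus NG and -0.57 for IR minus NG cells, 2 comparisons that share the NG arrays. Their list means were 3.89, 4.70 and 3.80 on the NG arrays, of which replicate 2 was the highest. The 17 measured subunits of oxidative phosphorylation had 6 higher and 11 lower means, none at that threshold, with a median of -0.09 that was 0.02 without F replicate 3. The 29 measured chemokine, interleukin and NF-kB target genes had 17 higher and 12 lower means, none at that threshold, and without F replicate 3 the counts were 13 and 16. The 28 measured cell-cell junction genes had 17 higher and 11 lower means, and a median of 0.09 that was 0.024 without F replicate 1. At an unadjusted p under 0.05, 0 were higher and 1 lower (3.57%, beside 2.14% of all genes). The lower member was DSG2, a desmosomal cadherin (-0.61 ± 0.22, named after its values were seen). Without F replicate 3 no member passed that threshold.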
